A study of Bos taurus with 30 samples.

Results

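The comparison asks whether skin changes differently between 0 h and 48 h of tick infestation in tick-resistant and tick-susceptible cattle. For each gene it takes the change in resistant animals (48 h minus 0 h), subtracts the change in susceptible animals, and so gives a difference of 2 changes, here called the contrast. All values are on a log2 scale, on which 1 unit is a 2-fold step, and a positive contrast means a more upward change in resistant skin. All 24016 non-control probe sets of a bovine expression array fall under the comparison, where a probe set is a group of short probes that reads 1 transcript. Of these, 13809 were bright enough to be tested, and they represent 7016 named genes.

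The contrast rests on 18 of the 30 arrays of the study. These are 5 resistant arrays before infestation (animals 01 to 05), 5 resistant arrays at 48 h (animals 01, 02, 03, 05 and 06), 3 susceptible arrays before infestation (animals 09, 10 and 11) and 5 susceptible arrays at 48 h (animals 07, 09, 10, 11 and 13). Each array holds RNA of 1 skin biopsy of 1 animal, and the study's design text places the biopsies at the sites of tick feeding, those of 0 h being from before the infestation. All animals belong to an F2 population made by crossing Gyr (Bos indicus) with Holstein (Bos taurus) cattle, so they differ from each other across the genome, and neither their age nor how resistance was scored is given in the sources used here. By number, 4 resistant and 3 susceptible animals have both times. The susceptible 0 h group is the smallest.

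An attached tick injects saliva and provokes inflammation in the dermis below the mouthparts. Interferon-gamma, made by T cells and natural killer cells, switches on the immunoproteasome and the genes that load peptides onto class I and class II major histocompatibility molecules. Macrophages take up debris and carry those class II molecules, and complement is a cascade of blood and tissue proteins that coats and lyses targets and attracts leukocytes. In cattle, the genes of the major histocompatibility complex are named BOLA and vary greatly in sequence between animals.

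The arrays read skin. KRT5 and KRT14, keratins of basal keratinocytes, had mean log2 signals of 14.25 and 13.75 over the 30 arrays, and the dermal collagens COL1A1 and COL3A1 had 12.54 and 14.91. Array medians lay between 7.17 and 7.40. Resistant 01 at 48 h stood furthest out on the first principal component (65.6, with 17.7% of the variance), followed by susceptible 11 at 48 h (38.3). The same 2 arrays had the lowest mean of the epidermal differentiation genes among the 18 (9.10 and 9.5, the others 10.03 to 11.25), so 1 such array lies in each phenotype. The resistant 0 h arrays numbered 03, 04 and 05 were, over the 100 most variable probe sets, closest to 24 h arrays of animals 04, 05 and 06. This leaves phenotype and time as labelled but makes the pairing by animal uncertain for them. XIST, the RNA of the inactive X chromosome of females, differed in the same way, with 2.05 at 0 h and 11.66 at 48 h in the arrays numbered resistant 03, and 11.54 and 3.11 in those numbered resistant 05. It was high in 3 of 5, 4 of 5, 1 of 3 and 2 of 5 arrays of the resistant 0 h, resistant 48 h, susceptible 0 h and susceptible 48 h groups. In bulk biopsies, more cells of a type and more RNA per cell cannot be told apart.

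No probe set passed the test of the contrast. limma called 0 of 13809 (0%) at an adjusted p under 0.05, and the lowest adjusted p was 0.999. At an unadjusted p under 0.05 there were 242 probe sets with a higher contrast (1.75%) and 163 with a lower one (1.18%), against 690.5 by chance for both together. The contrast had a median standard error of 0.31, and the median half-width of its unadjusted 95% interval was 0.63. At a typical probe set, differences of changes below about this size could not be told from 0 even without adjustment. After adjustment, larger ones were not called either. When the animal entered the fit as a fixed term, the counts at an unadjusted p under 0.05 were 382 and 236, and the number of calls remained 0. Without susceptible 11 at 48 h they were 434 and 376, again with 0 calls. The values below therefore describe where the largest differences lay, and none of them is a call.

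The components of the contrast were uneven. At an unadjusted p under 0.05 there were 1522 probe sets for the resistant change and 131 for the susceptible change, which has fewer arrays at 0 h and a median standard error of 0.23 against 0.20. Neither change had a call. The median contrast over the 7016 genes was -0.03, with 46% of genes above 0, and 2.1% of genes had an unadjusted p under 0.05 upward and 1.24% downward. These shares are the background for the gene lists below. All lists were written with earlier results of these data known. Genes of a list are read on the same arrays, so counts within a list are not independent evidence.

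Interferon-gamma target genes had the same sign throughout. All 15 measured genes of this list had a contrast above 0, with a median of 0.69, and 6 of 15 had an unadjusted p under 0.05. All 15 were also higher at 48 h than at 0 h in resistant skin (median 0.32) and lower at 48 h than at 0 h in susceptible skin (median -0.32). The list holds the 3 catalytic subunits of the immunoproteasome, which cuts proteins into peptides for class I molecules.

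PSMB9, the first of these subunits, read 9.23, 8.99, 9.43, 9.14 and 8.34 in the resistant 0 h arrays and 10.23, 9.70, 9.43, 10.24 and 9.66 in the resistant 48 h arrays. In susceptible skin it read 9.68, 9.82 and 9.68 at 0 h and 9.05, 9.63, 9.33, 9.59 and 9.28 at 48 h. The resistant arrays were all higher at 48 h than at 0 h, although the nearest 2 arrays, both numbered 03, were equal to 2 decimals, and the susceptible arrays were all lower at 48 h. The contrast was 1.17 ± 0.40 (SE, 95% interval 0.36 to 1.99; limma unadjusted p = 0.00639, adjusted p = 0.999). Of 13809 probe sets, 1 (0.00724%), PSMB9, had resistant 48 h arrays wholly above and susceptible 48 h arrays wholly below their 0 h arrays. The opposite pattern had 0 (0%). The 2 separations taken singly were seen in 1.02% and 0.688% of probe sets. Among so many probe sets chance alone can give 1 such case, and this was not tested.

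PSMB10, another of these subunits, had group means of 8.66 ± 0.42 (SD, n = 5) and 9.34 ± 0.34 (SD, n = 5) in resistant skin at 0 h and 48 h. Its susceptible means were 9.20 ± 0.15 (SD, n = 3) and 8.81 ± 0.19 (SD, n = 5). The contrast was 1.07 ± 0.40 (SE), and the groups overlapped within each phenotype. PSMB8, the remaining subunit, had a contrast of 0.94 ± 0.41 (SE), almost all of it a resistant change of 0.90, with -0.04 in susceptible skin. The chemokine CXCL10, which attracts T cells, had the largest estimate of the list but also a wide error (1.21 ± 0.86 SE).

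The interferon-gamma contrast was mainly a difference that was present at 0 h and smaller at 48 h. Before infestation 14 of the 15 genes had a lower mean in the resistant group (median difference -0.56), and at 48 h 8 of 15 were higher in resistant skin (median 0.12). As a mean of the 15 genes, the 5 resistant 0 h arrays (8.27 to 9.14) lay below the 3 susceptible 0 h arrays (9.41 to 9.71). At 48 h the resistant arrays (8.70 to 9.66) and susceptible arrays (8.98 to 9.61) overlapped. The number of genes with an unadjusted p under 0.05 was 3 instead of 6 without resistant 05 at 0 h, susceptible 10 at 0 h, resistant 01 at 48 h or susceptible 13 at 48 h, and all 15 contrasts remained above 0 without each of the 18 arrays.

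Genes induced by type I interferon, the antiviral interferons, had smaller contrasts in the main fit. Of 21 genes, 19 were above 0 (median 0.48) and 2 had an unadjusted p under 0.05, a count that was 6 with the animal as a fixed term. With that term the median was 0.64, beside 0.65 for the interferon-gamma targets. Without susceptible 07 at 48 h the 2 medians were 0.66 and 0.61. SAMD9, an antiviral factor, had a contrast of 1.70 ± 0.66 (SE), with a resistant change of 0.67 and a susceptible change of -1.02. LGALS3BP, a secreted galectin-binding protein, had 1.0 ± 0.48 (SE), and 0.69 ± 0.34 (SE) with its dimmer probe set. The antiviral genes MX1 (0.10 ± 0.44 SE) and RSAD2 (0.24 ± 0.69 SE) had contrasts smaller than their errors. This list too was lower in resistant skin before infestation in 19 of 21 genes (median -0.38).

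The class I list had 11 of 13 contrasts above 0 (median 0.47), with 4 at an unadjusted p under 0.05, 3 of which are the immunoproteasome subunits also counted above. The fourth was B2M, the light chain shared by class I molecules, at 0.47 ± 0.19 (SE). Its resistant 48 h arrays lay above the 0 h arrays without overlap, as in 1.02% of probe sets. The general chaperones of the endoplasmic reticulum in this list were near 0, with CANX at 0.02 ± 0.16 (SE) and PDIA3 at -0.06 ± 0.19 (SE). BOLA, a class I heavy chain, had an error too wide to read (1.72 ± 2.06 SE).

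Class II presentation had larger contrasts. Of 12 genes, 9 were above 0 (median 0.94) and 6 had an unadjusted p under 0.05. BOLA-DRA, the alpha chain of the class II molecule DR, read 11.30, 11.27, 11.90, 11.09 and 10.50 in resistant skin at 0 h and 12.47, 12.64, 11.56, 11.49 and 12 at 48 h. In susceptible skin it read 11.86, 12.07 and 11.77 at 0 h and 11.27, 11.07, 11.16, 11.95 and 11.31 at 48 h. The resistant groups overlapped through array 03 at 0 h, the highest of its group, and the susceptible groups through array 11 at 48 h, which stood apart at 11.95 from the next at 11.31. The contrast was 1.37 ± 0.45 (SE; limma unadjusted p = 0.0047, adjusted p = 0.999).

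The genes that load class II molecules followed BOLA-DRA closely in size. BOLA-DMB and BOLA-DMA, which encode the peptide exchanger DM, had contrasts of 1.24 ± 0.43 (SE) and 1.15 ± 0.42 (SE). CTSS, the protease cathepsin S that trims the invariant chain, had 1.11 ± 0.43 (SE), and CD86, a costimulatory ligand for T cells, had 1.28 ± 0.57 (SE). The 3 genes below 0 were BOLA-DQA2, BOLA-DQA5 and BOLA-DQB, with standard errors of 2.27, 2.36 and 1.65, the largest of the list. The class II list was lower in resistant skin at 0 h in 11 of 12 genes (median -0.51) and higher at 48 h in 9 of 12 (median 0.56), so both times contributed.

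Monocyte and macrophage genes had the largest median of the 33 lists with at least 5 measured genes. All 16 contrasts were above 0 (median 1.26), and 11 of 16 had an unadjusted p under 0.05. The median change was 0.89 in resistant skin and -0.34 in susceptible skin. The list was already known from earlier comparisons of these arrays, so its place is not independent evidence.

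AIF1, a calcium-binding protein of macrophages, read 9.26, 9.28, 9.39, 9.21 and 8.81 in resistant skin at 0 h and 10.78, 10.57, 9.62, 9.90 and 9.51 at 48 h. The susceptible arrays read 9.16, 9.26 and 8.98 at 0 h and 9.17, 8.60, 8.30, 9.37 and 9.44 at 48 h. All resistant 48 h arrays were above the resistant 0 h arrays, a separation that 1.02% of probe sets showed, while the susceptible arrays spread to both sides of their 0 h values. The contrast was 1.04 ± 0.37 (SE; limma unadjusted p = 0.00847, adjusted p = 0.999).

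CD68, a lysosomal glycoprotein of macrophages, had a contrast of 1.39 ± 0.50 (SE), with 48 h values from 8.60 to 10.81 in resistant and from 7.57 to 9.12 in susceptible skin. The pore-forming protein MPEG1 had 1.40 ± 0.54 (SE) and the high-affinity antibody receptor FCGR1A had 1.23 ± 0.49 (SE). MSR1, a scavenger receptor, had 1.67 ± 0.78 (SE) and VSIG4, a complement receptor of resident macrophages, 1.34 ± 0.57 (SE). The smallest values were those of FCGR3A (0.52 ± 0.63 SE) and the protease gene CTSB (0.12 ± 0.28 SE), which many cell types express.

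Here the difference lay at 48 h. Before infestation the macrophage genes were similar in both phenotypes (median 0.09, 4 of 16 lower in resistant skin), and at 48 h all 16 were higher in resistant skin (median 1.32). The mean of the list was 8.01 to 9.19 in resistant and 8.31 to 8.88 in susceptible skin at 0 h. At 48 h it was 9.18 to 10.28 in the resistant arrays, all above the susceptible arrays (7.23 to 9.09). Susceptible 09 and 10 at 48 h had the lowest means (7.73 and 7.23) and susceptible 11 the highest of its group. Leaving out susceptible 09 at either time gave 5 genes with an unadjusted p under 0.05 instead of 11, leaving out susceptible 10 at either time gave 6, and leaving out resistant 05 at 0 h or resistant 01 at 48 h gave 7. The median of the list stayed between 0.95 and 1.56 over the 18 arrays left out in turn.

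**Figure D1:**
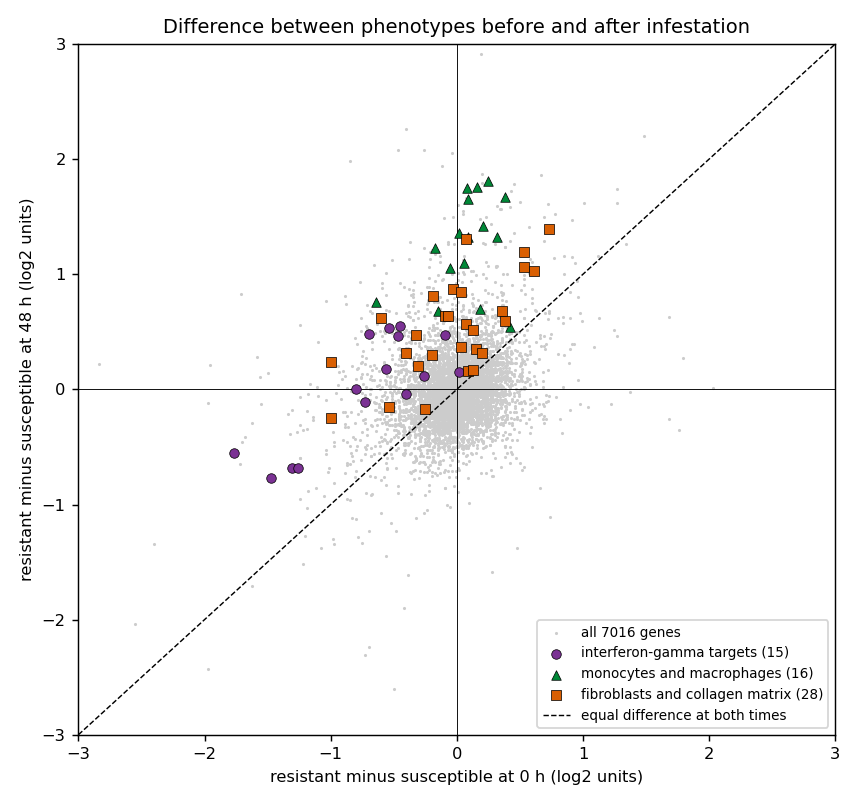
Difference between phenotypes (resistant minus susceptible, log2 units) before infestation on the horizontal axis and at 48 h on the vertical axis; each point is 1 gene, with 3 gene lists marked over all 7016 genes, and distance above the dashed line is the contrast. All marked genes lie above the line, the 15 interferon-gamma targets mostly left of 0 and the 16 macrophage genes mostly at 0 on the horizontal axis and high on the vertical one; 8 genes lie outside the plotted range.

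The complement list had 16 of 18 contrasts above 0 (median 0.79), and 6 had an unadjusted p under 0.05. Its 3 subunits of C1q, the starter of the classical pathway, are made by macrophages and are counted in both lists. C1QA, C1QB and C1QC had contrasts of 1.57 ± 0.64, 1.60 ± 0.68 and 1.29 ± 0.53 (SE). All 18 genes were higher at 48 h in resistant skin (median 0.57), and 14 were lower at 48 h in susceptible skin (median -0.33).

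CFP, properdin, stabilises the enzyme of the alternative pathway. It read 7.67, 7.56, 7.63, 7.51 and 7.74 in resistant skin at 0 h and 8.60, 9.02, 8.35, 7.77 and 8.27 at 48 h. Susceptible values were 7.80, 7.60 and 7.69 at 0 h and 7.76, 6.37, 6.25, 7.61 and 7.61 at 48 h. The resistant groups did not overlap, with 48 h above 0 h as in 1.02% of probe sets. In susceptible skin, arrays 09 and 10 lay more than 1 unit below the other 3 at 48 h. The contrast was 1.35 ± 0.42 (SE; limma unadjusted p = 0.00346, adjusted p = 0.999).

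CFB, the protease precursor of the same pathway, had a contrast of 1.27 ± 0.49 (SE), nearly all of it a resistant change of 1.18, with -0.08 in susceptible skin. C2, its counterpart in the classical pathway, had 1.25 ± 0.53 (SE). C3, the protein on which the pathways meet, had 0.58 ± 0.65 (SE), and the membrane regulator CD46 -0.06 ± 0.14 (SE). As for macrophages, the phenotypes were similar at 0 h (median 0.04) and apart at 48 h (median 0.76). The count of 6 was 2 without susceptible 09 at either time and 3 without susceptible 10 at 48 h.

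**Figure D2:**
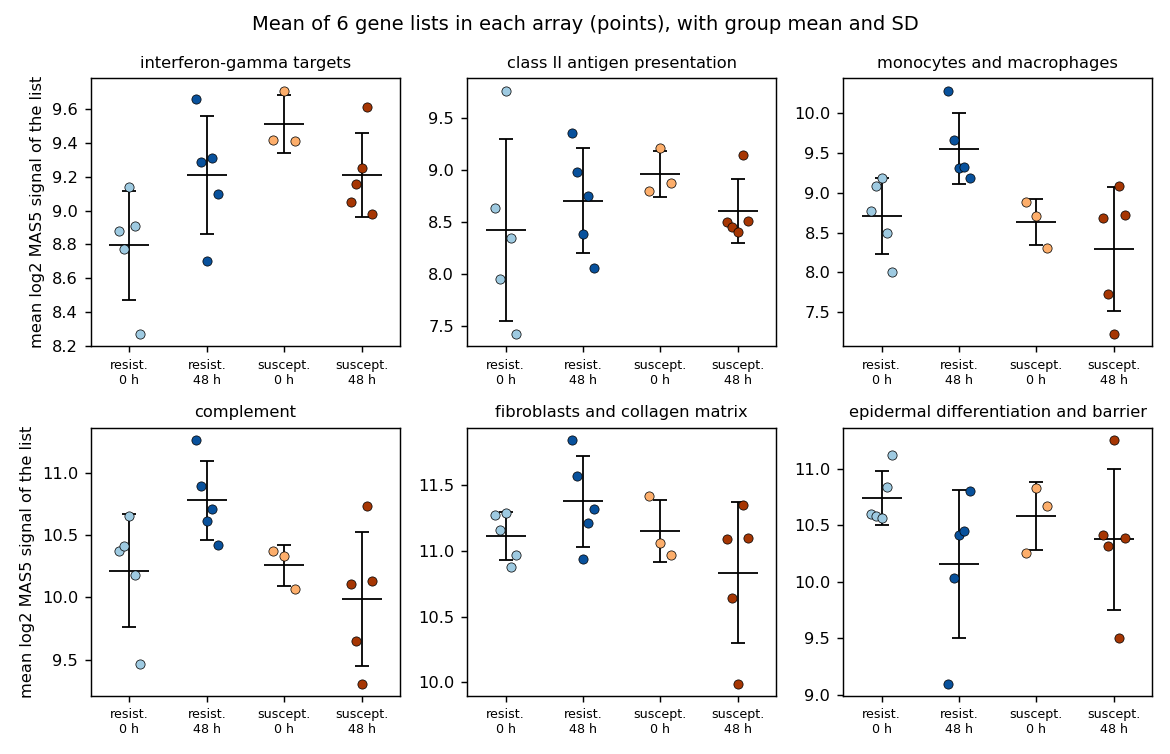
Mean log2 signal of 6 gene lists in each of the 18 arrays (points), by phenotype and time, with the group mean (bar) and SD (whiskers). The macrophage means of the 5 resistant 48 h arrays (9.18 to 10.28) lie above all susceptible 48 h arrays (7.23 to 9.09), while the interferon-gamma means differ at 0 h (8.27 to 9.14 against 9.41 to 9.71); the lowest epidermal value in resistant 48 h skin is array 01 (9.10).

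Among genes of the phagocyte oxidase, CYBA had the contrast with the smallest p. It encodes a membrane subunit of the oxidase that makes superoxide, and was of interest because it differed between phenotypes at 48 h in an earlier comparison of the same arrays. CYBA read 10.45, 10.51, 10.11, 10.30 and 10.12 in resistant skin at 0 h and 11.02, 10.82, 10.68, 11.07 and 10.72 at 48 h. Values in susceptible skin were 10.23, 10.14 and 9.76 at 0 h and 10.03, 10.08, 9.24, 9.73 and 9.90 at 48 h.

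The resistant groups of CYBA did not overlap (48 h above 0 h, as in 1.02% of probe sets), and the susceptible groups did. Its contrast was 0.81 ± 0.28 (SE; limma unadjusted p = 0.00624, adjusted p = 0.999). The other oxidase subunits had wider errors relative to their size, with CYBB at 0.74 ± 0.46 (SE), NCF1 at 0.46 ± 0.55 (SE), NCF4 at 0.29 ± 0.37 (SE) and RAC2 at 0.83 ± 0.50 (SE). Of the 20 genes of oxidative burst and antioxidant defence, 13 were above 0 (median 0.19, and 0.12 to 0.30 with 1 array left out, the lowest without resistant 05 at 48 h). CYBA was the only one with an unadjusted p under 0.05, and the peroxide-removing enzyme GPX1 had 0.38 ± 0.19 (SE).

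The gene with the smallest p of the whole contrast was COX7A1, the muscle-type isoform of a subunit of cytochrome c oxidase. It read 10.02, 9.47, 9.62, 9.18 and 9.13 in resistant skin at 0 h and 10.38, 10.40, 10.63, 10.80 and 10 at 48 h. The susceptible arrays read 9.90, 9.82 and 9.91 at 0 h and 9.70, 10.09, 9.45, 10.25 and 9.52 at 48 h. The resistant groups met only at array 01 at 0 h and array 06 at 48 h, and the susceptible 48 h arrays lay on both sides of the 0 h arrays.

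The contrast of COX7A1 was 1.03 ± 0.27 (SE, 95% interval 0.47 to 1.59; limma unadjusted p = 7.39e-04, adjusted p = 0.999). The rest of the respiratory chain did not follow it, since the 30 genes of that list had a median of 0.05. Genes of smooth muscle and pericytes had 13 of 14 contrasts above 0 (median 0.41) with none at an unadjusted p under 0.05. Their median was 0.16 without susceptible 11 at 0 h and 0.63 without susceptible 09 at 0 h, and DES, the muscle filament protein desmin, had 1.86 ± 0.96 (SE). All 14 genes were lower in resistant skin at 0 h (median -0.40), and the median difference at 48 h was -0.08. Their median change was 0.56 in resistant and 0.17 in susceptible skin. DES differed between phenotypes (resistant minus susceptible) by -1.58 at 0 h and 0.28 at 48 h.

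MMP19, a matrix metalloproteinase, had a contrast of 1.51 ± 0.46 (SE), with means of 7.16 ± 0.46 (SD, n = 5) and 8.16 ± 0.40 (SD, n = 5) in resistant skin. Its susceptible means were 7.54 ± 0.16 (SD, n = 3) and 7.03 ± 0.81 (SD, n = 5), the latter with 5.73 in array 10. MMP14, which activates other matrix proteases at the cell surface, had 2.17 ± 0.94 (SE), but its resistant 0 h arrays ranged from 3.32 to 7.84. The other 10 measured genes of matrix proteases and their inhibitors had an unadjusted p above 0.05, and the list median was 0.24. That median was 0.05 without susceptible 09 at 0 h, 0.06 without susceptible 10 at 48 h, 0.10 and 0.13 without resistant 05 and 04 at 0 h, and 0.38 without susceptible 11 at 0 h.

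RGS10, which ends G protein signals in myeloid cells, had a contrast of 1.30 ± 0.37 (SE) made up about equally of a resistant change of 0.63 and a susceptible change of -0.67. Its susceptible 48 h arrays (7.92 to 8.65) lay below the 0 h arrays (8.84 to 9.21), a separation seen in 0.688% of probe sets. GCHFR, which regulates the enzyme that makes tetrahydrobiopterin, leaned on the susceptible side, with 0.38 in resistant and -0.75 in susceptible skin (contrast 1.12 ± 0.35 SE). ENG, the endothelial co-receptor endoglin for transforming growth factor beta, had 1.18 ± 0.35 (SE), but the 15 endothelial genes had a median of only 0.29, which was 0.18 without resistant 05 at 0 h and 0.46 without susceptible 11 at 48 h. Between phenotypes, ENG was lower in resistant skin at 0 h (-0.79) and higher at 48 h (0.39).

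LGALS1, the immunoregulatory lectin galectin-1, was a resistant change instead. Its resistant arrays read 12.55 to 13.01 at 0 h and 13.28 to 14.09 at 48 h, without overlap, as in 1.02% of probe sets. Its susceptible arrays read 12.59 to 12.90 and 11.91 to 12.98. Its contrast was 0.98 ± 0.31 (SE). NOL3, an inhibitor of apoptosis, had 1.06 ± 0.35 (SE) with the brighter of its kept probe sets and 0.47 ± 0.51 (SE) with the other. CCDC150 had 0.95 ± 0.31 (SE).

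**Figure D3:**
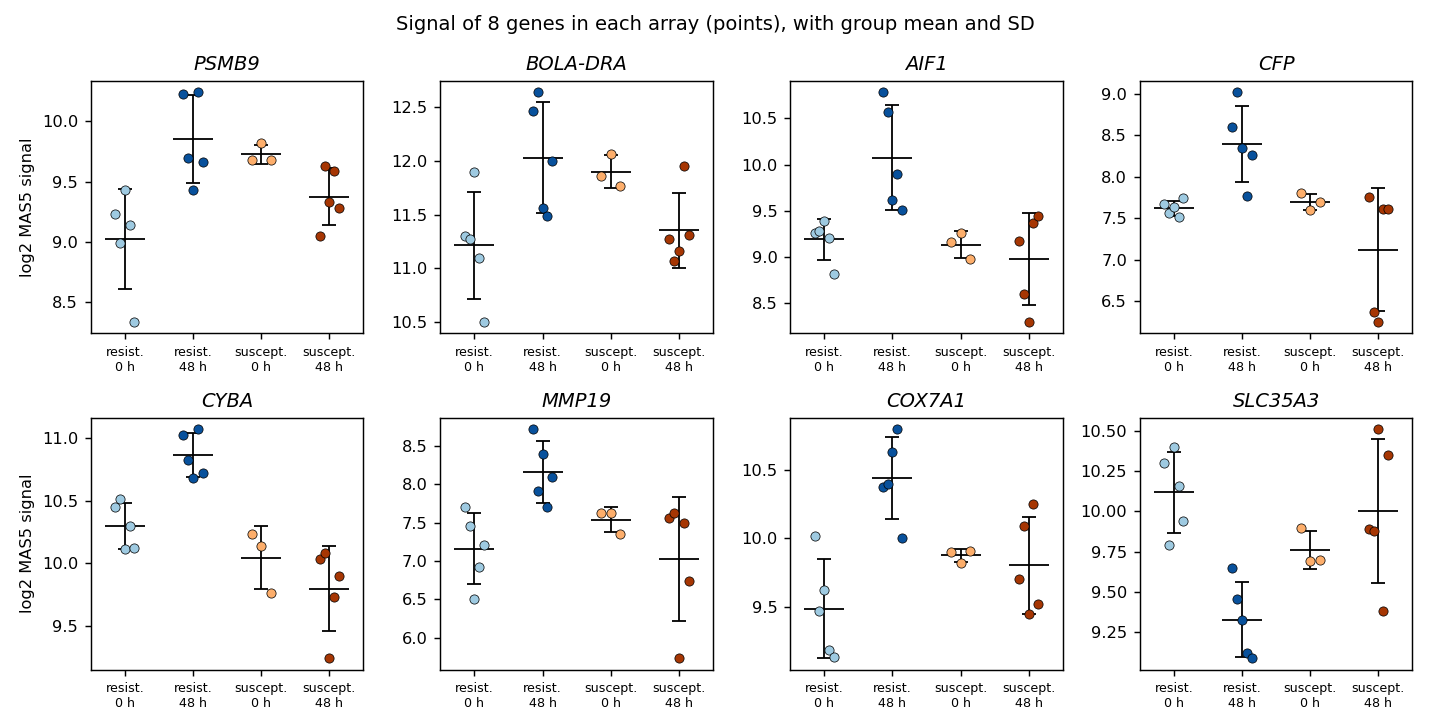
Log2 MAS5 signal of 8 genes in each of the 18 arrays (points), by phenotype and time, with the group mean (bar) and SD (whiskers). CFP, AIF1 and CYBA separate the resistant 0 h and 48 h arrays from each other, PSMB9 does so in both phenotypes in opposite directions, and SLC35A3 has its lowest group at 48 h in resistant skin.

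Genes with the most negative contrasts relative to their error were of other kinds and mostly differed by less than 1 unit. SLC35A3, which carries UDP-N-acetylglucosamine into the Golgi, read 10.30, 9.79, 10.40, 10.16 and 9.94 in resistant skin at 0 h and 9.65, 9.46, 9.33, 9.12 and 9.09 at 48 h. Susceptible values were 9.90, 9.69 and 9.70 at 0 h and 9.89, 9.88, 10.51, 9.38 and 10.35 at 48 h. The resistant 48 h arrays lay below the 0 h arrays, as in 0.956% of probe sets, and the susceptible groups overlapped. The contrast was -1.02 ± 0.29 (SE; limma unadjusted p = 0.00159, adjusted p = 0.999).

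KIF21A, a kinesin that walks along microtubules, had means of 10.20 ± 0.27 (SD, n = 5) and 9.11 ± 0.43 (SD, n = 5) in resistant skin. These groups did not overlap, as in 0.956% of probe sets. Its susceptible means were 9.97 ± 0.21 (SD, n = 3) and 9.84 ± 0.30 (SD, n = 5), and its contrast was -0.96 ± 0.32 (SE). Another kept probe set of this gene gave -0.89 ± 0.52 (SE). DUSP10, a phosphatase that switches off the stress kinases p38 and JNK, had -0.92 ± 0.31 (SE), with a resistant change of -0.71 and a susceptible change of 0.21.

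FSCN1, the actin-bundling protein fascin, had a contrast of -0.62 ± 0.19 (SE). The ARF exchange factor CYTH2 had -0.66 ± 0.23 (SE), the zinc finger protein ZNF131 -0.55 ± 0.17 (SE) and the RNA-binding protein PUM3 -0.47 ± 0.15 (SE). All 4 had resistant 48 h arrays wholly below their 0 h arrays (0.956% of probe sets) and susceptible changes between 0.02 and 0.16. ANP32E, a chaperone that removes the histone variant H2A.Z, differed from these. It had -0.66 ± 0.20 (SE), and its susceptible 48 h arrays (8.63 to 9.23) were all above the 0 h arrays (8.51 to 8.58), which 0.659% of probe sets showed. The acetyltransferase KAT14 (-0.69 ± 0.24 SE) and the proteasome-associated deubiquitinase UCHL5 (-0.73 ± 0.25 SE) overlapped in both phenotypes.

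Dermal matrix genes had contrasts that were small but, in the main fit, of one sign. All 28 genes of fibroblasts and collagen matrix were above 0 (median 0.52), and 1 had an unadjusted p under 0.05, against 8 with the animal as a fixed term. That 1 gene was COL6A2, a chain of collagen VI, at 1.25 ± 0.53 (SE). The next smallest p-values were those of the proteoglycan versican (VCAN, 1.0 ± 0.52 SE), fibronectin (FN1, 1.24 ± 0.67 SE) and elastin (ELN, 0.75 ± 0.42 SE). The other kept probe sets of VCAN gave 0.87 ± 0.41 and 0.47 ± 0.68 (SE). The median change was 0.18 in resistant and -0.34 in susceptible skin, so more of this contrast lay on the susceptible side than for macrophages. Susceptible 10 at 48 h had the lowest mean of the list among all 18 arrays (9.99, the next 10.64). Without it the median of the list was 0.33, and 23 of 28 genes were above 0. That count was 25 without susceptible 10 at 0 h, susceptible 09 at 48 h or resistant 01 at 48 h.

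Genes of the epidermis leaned the other way. Of 9 differentiation and barrier genes, 7 were below 0 (median -0.51), of 10 basal keratinocyte genes 8 (median -0.34), and of 6 genes of wound keratinocytes 5 (median -0.49), with none at an unadjusted p under 0.05 by its brightest probe set. The 2 basal genes above 0 were those with the smallest p of that list, CD44 (0.44 ± 0.23 SE) and ITGB4 (0.48 ± 0.36 SE). The 1 wound keratinocyte gene above 0 had 1.06, further from 0 than the lowest of that list (-0.87). DSG1, a cadherin of desmosomes, had means of 13.75 ± 0.16 (SD, n = 5) and 12.90 ± 0.55 (SD, n = 5) in resistant skin. The resistant groups did not overlap, as in 0.956% of probe sets. Its susceptible means were 13.76 ± 0.05 (SD, n = 3) and 13.61 ± 0.49 (SD, n = 5), which gave a contrast of -0.70 ± 0.36 (SE). CLDN1, the tight junction protein claudin-1, had -1.35 ± 0.78 (SE). Of its spread around the group means, 80.8% lay between animals as numbered, where the median over probe sets was 53.5%. This share is not corrected for the 11 animal terms fitted, so it is above 0 even where animals do not differ. The dimmer probe set of CLDN1 gave -1.88 ± 0.85 (SE; limma unadjusted p = 0.0356), with 89.0% between animals.

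These epidermal medians depended on single arrays, above all the one that stood furthest out. Without resistant 01 at 48 h the differentiation median was -0.20, the wound keratinocyte median -0.18 and the basal median 0.06. Without susceptible 11 at 48 h the differentiation and basal medians were -0.78 and -0.58. The basal median was also -0.13 without susceptible 09 at 0 h, -0.15 without susceptible 10 at 48 h and -0.56 without resistant 06 at 48 h. In the same 2 arrays the macrophage means were the highest of their groups (10.28 and 9.09), and how much the share of epidermis in a biopsy contributes to the macrophage contrast was not tested. Without resistant 01 at 48 h, all 15 interferon-gamma contrasts remained above 0 (median 0.61), and the complement median was 0.61.

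Lymphocyte genes had wide errors. Of 10 T cell genes, 8 were above 0 (median 0.46), and none had an unadjusted p under 0.05. The median was 0.23 without susceptible 10 at 48 h and 0.30 without resistant 01 at 48 h. CD3G, a chain of the T cell receptor complex, had 0.92 ± 0.62 (SE), and its signalling partner CD247 0.53 ± 0.35 (SE). In this list the phenotypes differed at 0 h (median -0.43) and hardly at 48 h (median -0.05), like the interferon-gamma targets. Cytotoxic cell genes were too few for a list, with GZMB at 1.06 ± 0.80 (SE) and NKG7 at 0.94 ± 0.61 (SE). For interferon-gamma signalling itself, 9 of 15 listed genes were matched to a probe set by symbol and only 3 of those 9 passed the filter on signal, with the receptor chain IFNGR2 at 0.27 ± 0.26 (SE) and the kinase JAK1 at 0.11 ± 0.18 (SE).

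Among granulocyte genes, all 5 measured genes of mast cells, basophils and eosinophils were above 0 (median 1.12), and 1 had an unadjusted p under 0.05. This was TPSB2, a mast cell tryptase, at 2.55 ± 0.99 (SE). It read 6.88, 5.75, 7.73, 5.20 and 5.14 in resistant skin at 0 h and 8.64, 7.68, 7.17, 7.49 and 6.58 at 48 h. In susceptible skin it read 6.70, 7.06 and 6.07 at 0 h and 6.83, 5.81, 2.37, 6.21 and 5.96 at 48 h, where array 10 stood far below the others, and without that array the contrast was 1.78.

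The list median for mast cells was 0.53 without resistant 01 at 48 h. FCER1A, the chain of the high-affinity IgE receptor that binds IgE, had 1.22 ± 0.87 (SE). Neutrophil genes showed little, with a median of 0.09 over 6 genes, 2 of them below 0 (lowest -1.05). The highest was S100A9, a calprotectin subunit, at 0.50 ± 0.48 (SE). Its dimmer probe set gave 1.05 ± 0.77 (SE), and the brighter one gave 0.12 without susceptible 11 at 0 h. Type 2 immunity had 6 of 7 genes above 0 (median 0.36), among them CCL26, an eosinophil chemokine, at 1.22 ± 0.85 (SE). Without susceptible 11 at 0 h CCL26 had 0.42, and the type 2 median was 0.19 without resistant 01 at 48 h and 0.22 without susceptible 07 at 48 h.

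Of the remaining lists, leukocyte adhesion had 17 of 17 genes above 0 (median 0.37), and none had an unadjusted p under 0.05 by its brightest probe set. SELPLG, the selectin ligand of leukocytes, had 0.76 ± 0.38 (SE), and 1.87 ± 0.68 (SE) with its dimmer probe set. ALOX5AP, which presents arachidonic acid for leukotriene synthesis, had 1.17 ± 0.58 (SE) in an eicosanoid list with a median of 0.32. In coagulation, F13A1, the transglutaminase that cross-links fibrin and a marker of dermal macrophages, had 1.47 ± 0.75 (SE), and its other kept probe sets 1.46 and 2.09. Tissue factor (F3), which starts coagulation, had -0.64 ± 0.33 (SE). Cell cycle genes were below 0 in 23 of 25 cases (median -0.28, and -0.17 without resistant 01 or resistant 02 at 48 h), with AURKB, a mitotic kinase, at -0.53 ± 0.28 (SE). Ribosomal protein genes had 27 of 27 above 0, but their median of 0.13 turned to -0.05 under quantile normalization, so no direction is given.

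**Figure D4:**
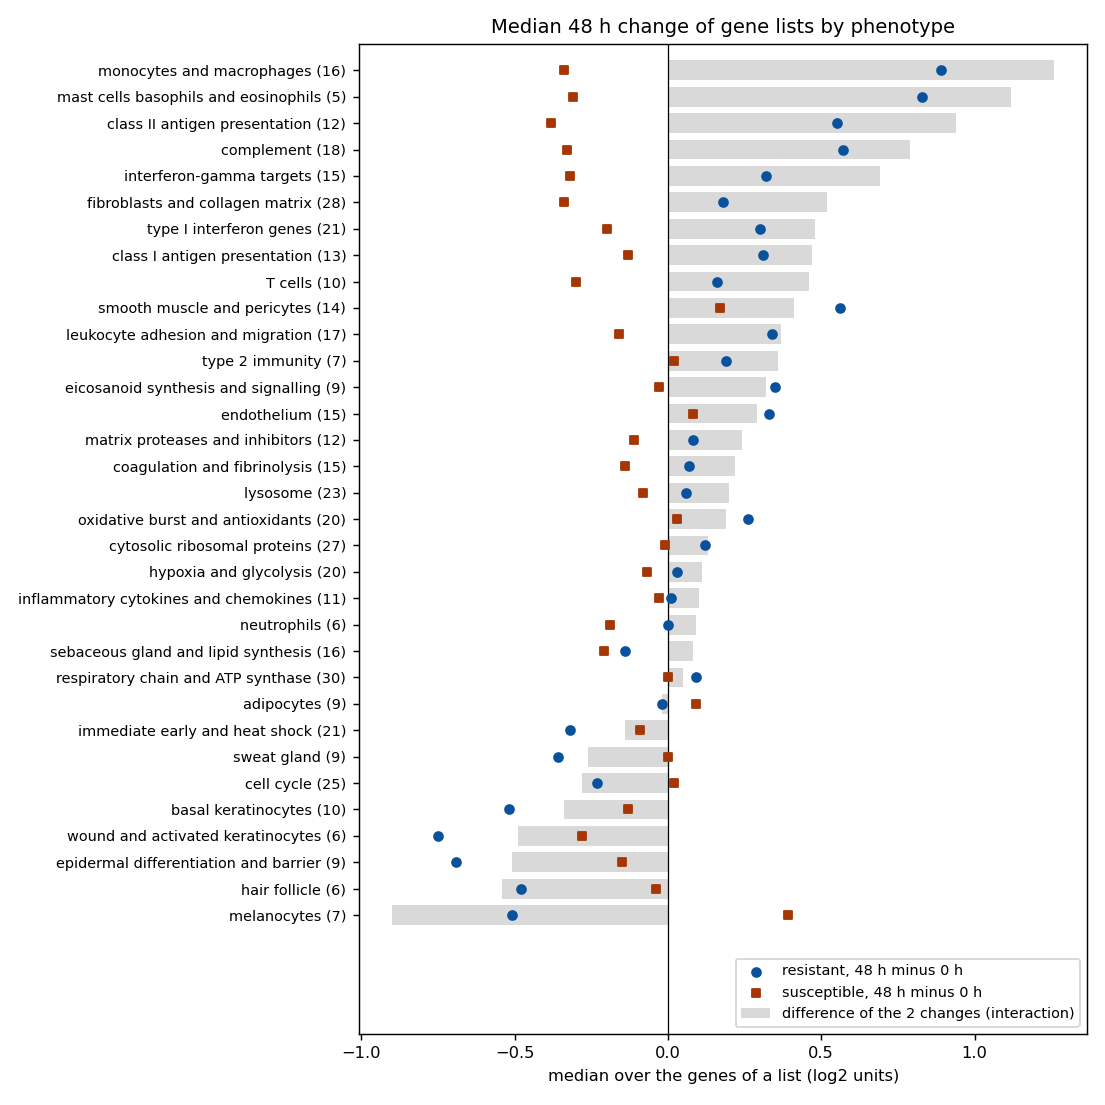
Median over the genes of each of 33 lists (number of genes in brackets, log2 units) of the change from 0 h to 48 h in resistant (circles) and susceptible (squares) skin, and of the contrast between them (bars). Macrophage, mast cell, class II, complement and interferon-gamma lists have resistant medians above 0 and susceptible medians below 0, and epidermal lists have both medians below 0.

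At 24 h the same contrast, formed with the 24 h arrays and the same 0 h arrays, also had 0 calls. Interferon-gamma targets had a median of 0.48 at 24 h beside 0.69 at 48 h, and class II genes 0.43 beside 0.94. For macrophages the medians were -0.01 and 1.26, and for complement -0.08 and 0.79. AIF1 had 0.03 at 24 h and 1.04 at 48 h, while PSMB9 had 0.70 and 1.17. The shared 0 h arrays tie these values together, and the difference between the times was not tested.

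The arrays that share a number can be read one by one, with the doubt about resistant 03 and 05 given above. CFP differed by 0.93, 1.46, 0.72 and 0.02 between 48 h and 0 h in resistant 01, 02, 03 and 05, and by -1.42, -1.35 and -0.08 in susceptible 09, 10 and 11. CYBA differed by 0.57, 0.32, 0.57 and 0.95 in the resistant and by -0.14, -0.90 and -0.03 in the susceptible animals. With the 3 doubtful 0 h numbers moved to those of their closest arrays, the values of resistant 03 and 05 are replaced by ones for 05 and 06, of 0.26 and 0.53 for CFP and 0.77 and 0.61 for CYBA. Under either numbering both genes were higher at 48 h in every resistant pair and lower in every susceptible pair, although the smallest differences were close to 0.

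Over all probe sets, 0.261% had this pattern and 0.521% its reverse, or 0.601% and 0.558% with the uncertain 3 resistant animal numbers moved. The macrophage mean was higher at 48 h in all 4 resistant pairs (1.51, 0.57, 0.12 and 1.30, the last 2 being 0.82 and 1.17 with the numbers moved), and in susceptible skin it differed by -1.15, -1.47 and 0.78. Susceptible 11, the animal whose 48 h array stood out, was thus the exception. The interferon-gamma mean differed by -0.26, -0.46 and 0.20 in the susceptible pairs, with the same exception. In resistant skin it differed by 0.78, 0.52, -0.44 and 1.05 as numbered, where the negative value is of the doubtful pair 03, and by 0.78, 0.52, 0.40 and 0.84 with the numbers moved.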

How the data were processed

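The deposited values are log2 signals that the authors made with MAS5, per the submitters' processing notes (version not given in the sources used here). The linear signals had a 2% trimmed mean of 500.0 in every array. The deposited values were used as given. The array has 24128 probe sets. After removal of 112 controls, 13809 at or above their array's median in at least 3 of 30 arrays were kept. Symbols came from the array's annotation (13292 probe sets with 1 symbol, 86 with several, 10638 with none), and a gene is its kept probe set with the highest mean. The number of arrays limits the precision. With limma 3.58.1 (R 4.3.3), 1 mean per group was estimated from the 30 arrays and the contrast tested two-sided by eBayes with an intensity trend. The Benjamini-Hochberg adjustment covered all 13809 probe sets. The fit was tested on simulated data. Plots used matplotlib 3.10.9 in Python 3.11.15.

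Members and lists were chosen with earlier results of these data known. Named genes were the 10 with the smallest p in each direction, the 2 with the smallest p in each list with at least 5 measured genes, and CYBA, COX7A1 and KIF21A; other list members were named after their values were seen. Equal numbers mark 1 animal per the labels. Deviations from group means at 0 h and 48 h correlated between -0.24 and 0.32 over 7 pairs, above 0.1 in 3. Alternatives were 2 other normalizations, no filter, an offset of 16, animal as random block or fixed term (also with 3 numbers moved), only 18 arrays, no trend, array weights, an added 2-fold threshold and leaving out each array; terms for XIST and for GAPDH 3' minus 5' signal were added after seeing the data. A planned search of promoter sequences was not run, and no sequences or coordinates were used here.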

Additional observations from a re-analysis of the deposited data

Results flagged for a closer look

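Some values stood apart from the rest of their group of 5 arrays by Dixon's criterion, which chance meets in about 1 in 20 groups. It was applied to 336 groups of values, of named genes and of list means, and 22 stood apart. Susceptible 11 at 48 h accounted for 9 of them. It was the highest of its group for BOLA-DRA (11.95), CD247 (8.84) and the means of the class II (9.14), endothelium (9.53) and smooth muscle lists (11.39). It was the lowest for KRT18 (7.99), IER3 (10.67), CENPF (9.04) and the sweat gland mean (9.14).

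Susceptible 10 at 48 h was lowest for TPSB2 (2.37) and the mast cell mean (5.91). In resistant skin at 48 h, array 01 was lowest for the wound keratinocyte mean (8.53), array 02 highest for S100A9 (7.87), and array 03 lowest for CCL26 (12.40). Array 05 was highest for the melanocyte receptor gene MC1R (9.55) and lowest for DES (8.66) and the smooth muscle mean (9.70). In resistant skin at 0 h, array 05 was highest for DSG1 (14.04) and the gap junction gene GJB2 (12.78) and lowest for GPX1 (12.02). Array 02 was highest for LGALS3BP (9.51) and the coagulation mean (10.80).

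In 8 named genes every pair of arrays with 1 animal number moved one way in resistant and the opposite way in susceptible skin, and this difference was not tested beyond the contrast itself. The contrast was positive for RGS10 (1.30), CFP (1.35), GCHFR (1.12), PSMB9 (1.17) and CYBA (0.81), and negative for FSCN1 (-0.62), ANP32E (-0.66) and DUSP10 (-0.92). The pattern also held for the 8 genes with the 3 uncertain animal numbers moved. Of all 13809 probe sets, 0.261% moved up in every resistant and down in every susceptible pair, and 0.521% the reverse. With the numbers moved these shares were 0.601% and 0.558%. All 8 genes were named for a small p of the contrast, which favours such a pattern.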

How the results depend on the processing

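The number of calls was 0 in all 31 alternatives, 18 of which left out 1 array. The added 2-fold threshold can only remove calls, so its 0 was fixed by the main result. With the replicate block (animal as a fixed term) the number of calls was also 0, so the pairing changed no call. The lowest adjusted p was 0.10, with the fixed term and 3 numbers moved. Probe sets at an unadjusted p under 0.05 numbered 242 higher and 163 lower, 184 to 434 and 134 to 376 with 1 array left out, 469 and 355 with no filter, 389 and 307 with array weights, and 507 higher with 3 numbers moved. Of 79 genes, 77 kept their sign in every alternative. The exceptions were MC1R (-0.90), at 0.26 with the fixed term and 0.06 with 3 numbers moved, and HSPA5 (-0.31), at 0.02 with the latter. The 79 genes were named for the smallest p of this contrast, among all genes or within a list, which favours a kept sign. Of 33 lists, 24 kept the sign of their median. Medians turned with array weights for neutrophils (-0.12), with quantile normalization for ribosomal proteins (-0.05), with the fixed term for melanocytes (0.26), and for sebaceous gland (-0.09, and -0.19 with 3 numbers moved) and immediate early genes (0.07 and 0.02). Leaving out 1 array gave -0.16 to 0.33 for neutrophils, -0.01 to 0.26 for inflammatory cytokines, -0.58 to 0.06 for basal keratinocytes, -0.10 to 0.25 for sebaceous gland, -0.10 to 0.12 for adipocytes, -0.32 to 0.01 for immediate early genes and -0.01 to 0.19 for hypoxia. The causes were not tested. Signals near the array median and 3 susceptible 0 h arrays limit the precision.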
